A study of Mus musculus with 7 samples.

Results

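At postnatal day 12 (P12) the deposited lists held 44142 H3K4me3 peaks from mouse spermatocytes, of which 36621 shared no base with an H3K27me3 peak of the same stage. Of those, 9915 shared at least 1 bp with an H3K27me3 peak at day 17 (P17), which is 27.1% of the H3K4me3-only peaks. These 9915 regions are called gaining sites here. They were chosen from the H3K4me3 and H3K27me3 calls at P12 and the H3K27me3 calls at P17, so their H3K27me3 values are a description and carry no test. The other 26706 H3K4me3-only peaks, without an H3K27me3 call at either stage, are called free sites. A further 7521 P12 H3K4me3 peaks already overlapped H3K27me3 at P12, and 7456 of them did so again at P17 (both-mark sites). In the opposite direction 65 of the 7521, or 0.864%, had no H3K27me3 peak at P17.

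All samples came from wild-type (WT) CD1 mice, an outbred stock, and differed in age and antibody. Spermatocytes, the germ cells that carry out meiosis, were obtained by enzymatic digestion of testes and a Percoll density step, fixed, and profiled by chromatin immunoprecipitation and sequencing. The 5 lists used here are H3K27me3 and H3K4me3 at P12 (1 replicate each), the same marks at P17 (2 replicates pooled into 1 list each) and EED at P17 (1 replicate). For P17 H3K4me3 the labels list the H3K27me3 antibody, against the sample's title. The title was followed, and its peaks covered 95.7% of all P12 H3K4me3 peaks. Transcripts were not measured, so the purity of the cells was not tested against marker genes. Germ cells at P17 have moved further through meiotic prophase than at P12, so a difference in cell composition and a change within cells cannot be told apart.

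H3K4me3 is the trimethyl mark at lysine 4 of histone H3, found at promoters, and in spermatocytes the meiotic methyltransferase PRDM9 also places it at recombination hotspots. H3K27me3 is placed by Polycomb repressive complex 2 (PRC2), in which EED is the core subunit that binds existing H3K27me3 and stimulates the enzyme. Regions that carry both marks are known as bivalent and in many cell types lie at promoters of developmental regulators. In germ cells such promoters are known to keep both marks through meiosis and into sperm. The peak lists carry coordinates in mouse build mm9 without gene names, and the sites below are given by position. Each mark and stage has 1 list, so no replicate error can be given. The 95% Wilson intervals below cover counting error over called peaks only. The P12 and P17 lists differ in pooling, so depth of sequencing and stage cannot be told apart in any count of gained calls.

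New H3K27me3 calls formed a cap over the H3K4me3 peak. Of the 9915 gaining sites, 7054 (71.1%) lay wholly inside P17 H3K27me3 and 9539 (96.2%) had at least 50% of their length covered. Only 58 sites were covered over less than 10% of their length, and 63 touched 2 separate H3K27me3 peaks. The P17 H3K27me3 peak over a gaining site measured 2405 bp in the median (quartiles 1843 and 3234 bp). The H3K4me3 peak beneath it measured 1461 bp in the median at P12 (quartiles 1177 and 1873 bp). At both-mark sites the P17 H3K27me3 peak was wider, with a median of 5153 bp (quartiles 3815 and 7973 bp). The difference was also present within classes of H3K4me3 width. Among H3K4me3 peaks from 1000 to 1500 bp the medians were 2134 bp over gaining sites and 4478 bp over both-mark sites. Among those of 4000 bp or more they were 3761 and 8063 bp.

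**Figure D1:**
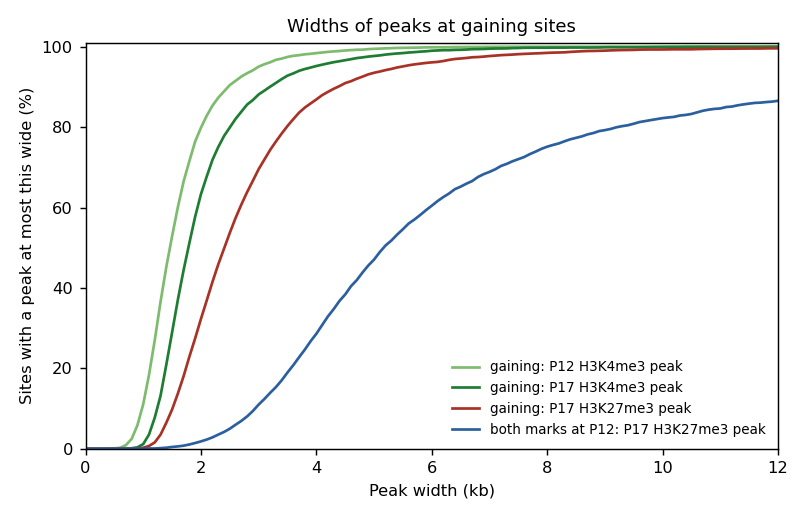
Cumulative share of sites (vertical axis, percent) against peak width (horizontal axis, kb) for the P12 H3K4me3, P17 H3K4me3 and P17 H3K27me3 peaks at gaining sites, and the P17 H3K27me3 peaks at both-mark sites. The 3 gaining-site curves have medians of 1461, 1783 and 2405 bp, and the both-mark curve lies to their right, with a median of 5153 bp.

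The new peaks reached a short way beyond H3K4me3 in the median, with a wide spread. Beyond the P17 H3K4me3 peak, H3K27me3 reached a median of 244 bp further on the lower-coordinate side and 229 bp further on the higher-coordinate side. The lower-coordinate overhang had quartiles of -11 and 596 bp and 10th and 90th percentiles of -391 and 1153 bp, where negative values mean that H3K27me3 ended inside H3K4me3. At both-mark sites the same overhangs were 1169 and 1136 bp. The centre of the new H3K27me3 peak lay a median of 221.5 bp from the centre of the P12 H3K4me3 peak (90th percentile 1077 bp). The ratio of H3K27me3 to H3K4me3 width at P17 had a median of 1.29 at gaining sites (quartiles 1.04 and 1.67) and 2.11 at both-mark sites (1.58 and 3.26). In 5495 of the 9753 gaining sites with both marks at P17 (56.3%) the H3K27me3 peak held the whole H3K4me3 peak. In 870 (8.92%) the H3K4me3 peak held the H3K27me3 peak, and in 3388 (34.7%) the 2 peaks were shifted against each other. Widths of the marks were weakly related across sites. Spearman's rho between P12 H3K4me3 and P17 H3K27me3 width was 0.31 over 9915 gaining sites, which share the same libraries, and 0.26 over 7456 both-mark sites.

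**Figure D2:**
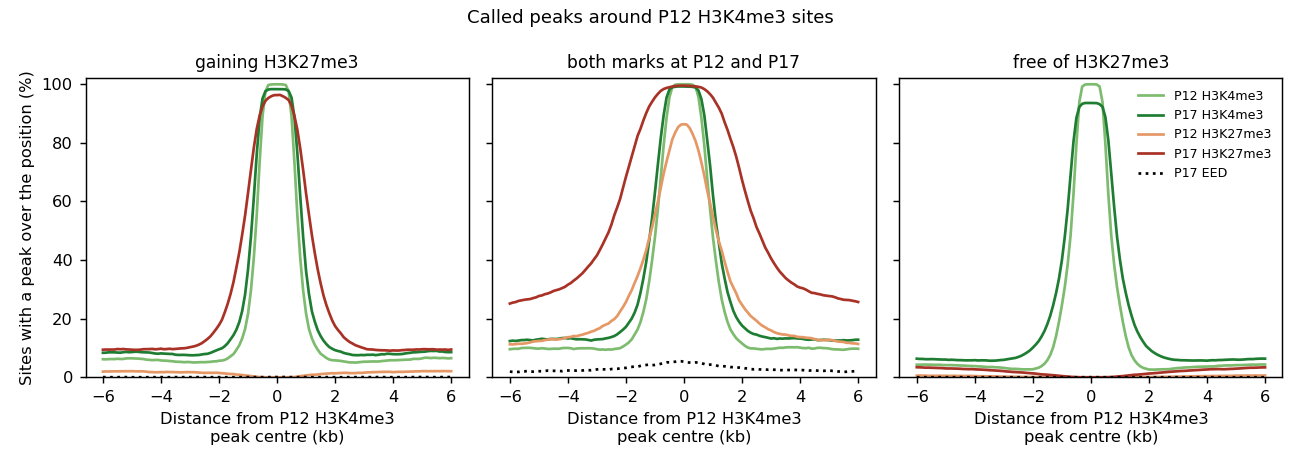
Share of sites (vertical axis, percent) with a called peak over each position from the centre of the P12 H3K4me3 peak (horizontal axis, kb, steps of 100 bp), for each of the 5 lists, at 9915 gaining, 7456 both-mark and 26706 free sites. P17 H3K27me3 lies over 96.3% of gaining-site centres and 62.9% of positions 1000 bp below them, against 99.5% and 95.5% at both-mark sites.

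The flanks were covered at fewer sites. At 2000 bp from the centre, 17.8% of gaining sites on the lower-coordinate side and 17.5% on the other were under P17 H3K27me3, against 68.4% and 67.4% of both-mark sites. P12 H3K27me3, absent over the sites themselves by the rule, lay over 1.49% and 1.34% of those flanking positions at gaining sites.

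Many of the P17 H3K27me3 peaks without a P12 counterpart lay at gaining sites. The gaining sites lay under 9673 P17 H3K27me3 peaks, 36.7% of that list by number and 30.7% by length (26.5 of 86.4 Mb). Of the 17925 P17 H3K27me3 peaks without a P12 counterpart, 9163 (51.1%) covered at least 1 gaining site. Of all 9673 peaks over gaining sites, 9377 held 1 such site, 287 held 2 and 9 held 3. By the naming rule, which took the 5 peaks with the most gaining sites and the wider first among equals, all 5 held 3. The widest lay at chr4:150509132-150520922 (11791 bp), covered a P12 H3K27me3 peak as well, and held 4 P12 H3K4me3 peaks. The one at chr11:50042812-50052349 (9538 bp) held no P12 H3K27me3 and kept 3 H3K4me3 peaks at P17. The others were chr7:148646442-148653401, chr4:109691419-109697672 and chr10:76424969-76431099, of which the last covered P12 H3K27me3. None of the 5 held an EED peak. Of all P17 H3K27me3 peaks 2.27% did, so nothing is read from this absence.

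Few gaining sites shared their P17 H3K27me3 peak with P12 H3K27me3. Of the 9915, 540 (5.45%, interval 5.02% to 5.91%) lay under a P17 H3K27me3 peak that also covered a P12 H3K27me3 peak, and 9375 (94.6%) under separate new peaks. Over all P17 H3K27me3 peaks, 32.1% covered a P12 H3K27me3 peak. That share uses the calls that chose the sites, so nothing is read from the difference. The 540 joined sites stood a median of 900 bp from the P12 H3K27me3 peak, and the P17 peak over them had a median width of 5885 bp. The separate sites stood a median of 71767 bp from P12 H3K27me3, under P17 peaks of 2342 bp in the median. The joined and separate sites themselves had median P12 widths of 1307 and 1471 bp.

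Nearness to earlier H3K27me3 went with more gained calls. Among H3K4me3-only peaks under 1000 bp from a P12 H3K27me3 peak, 308 of 344 (89.5%, 85.9% to 92.3%) were gaining sites. The share was 56.7% (54.1% to 59.3%) from 1000 to 5000 bp and 38.1% (36.6% to 39.5%) from 5000 to 20000 bp. It was 27.4% from 20000 to 100000 bp and 22.7% from 100000 to 500000 bp. At 500000 bp or more, 761 of 4760 sites were still gaining, 16.0% (15.0% to 17.1%). These distances and calls are those the rule used, so the shares are a description. In the nearest class 288 of 308 gaining sites were joined to a P12 domain, and in the next class 252 of 768. No site 5000 bp or more away was joined, so the shares beyond that distance describe separate peaks alone. Among sites from 1000 to 1500 bp wide the shares ran from 90.7% in the nearest class to 17.7% in the farthest. Among sites from 2000 to 3000 bp wide the 3 classes from 20000 bp outward differed little, at 20.8%, 20.7% and 18.9%.

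H3K4me3 width and gain were not related in a single direction. Of H3K4me3-only peaks under 750 bp, 12.6% (10.8% to 14.6%) were gaining sites. The share was 35.9% (34.5% to 37.3%) for widths of 1500 to 1750 bp, fell back to 20.8% (19.1% to 22.5%) for 2500 to 3000 bp and stood at 43.3% (38.3% to 48.4%) for the 365 peaks of 4000 bp or more. The shares between 2000 and 4000 bp lay below those of the middle classes and of the widest class. A wider peak has more bases at which to meet another peak, and the part of this in the shares was not tested. As a set, gaining sites measured 1461 bp in the median, free sites 1372 bp and both-mark sites 1926 bp.

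**Figure D3:**
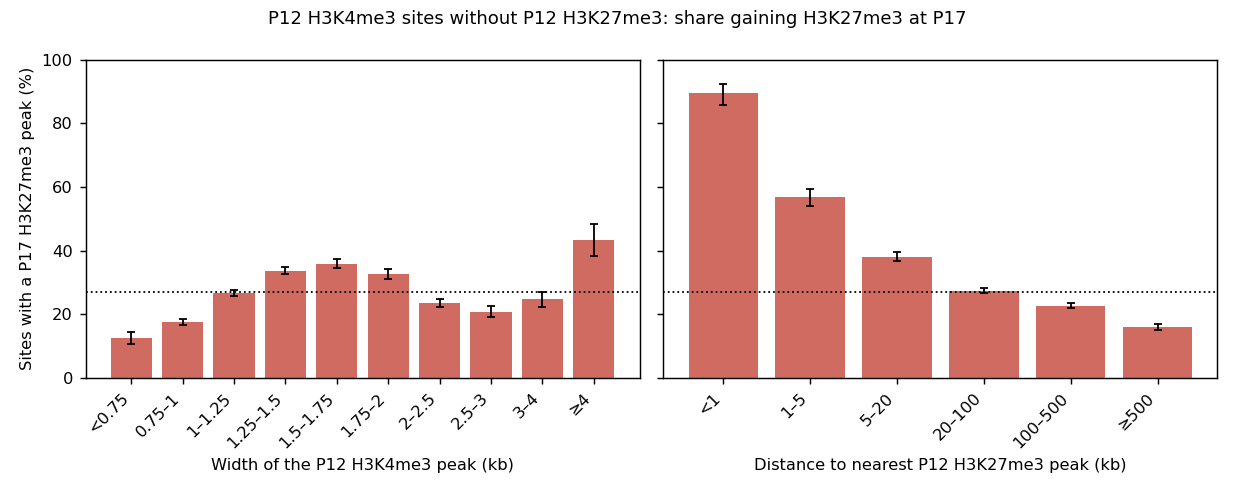
Share of the 36621 H3K4me3-only P12 peaks with a P17 H3K27me3 peak (vertical axis, percent, bars with 95% Wilson intervals) by H3K4me3 width and by distance to the nearest P12 H3K27me3 peak (horizontal axes, classes in kb); the dotted line marks the overall 27.1%. By width the share has a maximum of 35.9% in the middle classes and 43.3% in the widest, and by distance it runs from 89.5% down to 16.0%.

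The share of sites followed by a gaining site was higher among gaining sites than among free sites. Along the chromosome, the next H3K4me3-only peak was itself gaining for 37.5% of gaining sites (36.5% to 38.4%) and for 23.2% of free sites (22.7% to 23.7%). For gaps under 5000 bp the shares were 53.6% and 22.2%, and for gaps of 100000 bp or more 27.5% and 20.4%. In the shortest class 286 of 750 gaining pairs (38.1%) lay under 1 shared P17 H3K27me3 peak and are not separate events. In the order of H3K4me3-only peaks, 3971 gaining sites (40.1%) stood alone, 3164 (31.9%) belonged to runs of at least 3, and the longest run held 15. With 27.1% of H3K4me3-only peaks gaining, runs also occur in a random order, and their share in such an order was not computed. The run counts include neighbours under 1 shared P17 peak. They use the calls that chose the sites and are a description.

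The X chromosome stood apart. Of its 1130 H3K4me3-only peaks, 48 (4.25%, 3.22% to 5.59%) were gaining sites, against 9867 of 35480 (27.8%, 27.3% to 28.3%) on autosomes. The 19 autosomes ranged from 25.2% on chromosome 14 to 30.5% on chromosome 5. The X chromosome also carried only 117 of the P17 H3K27me3 peaks, against 26270 on autosomes. In male meiosis the X chromosome is unpaired over most of its length and is silenced at the pachytene stage. Whether this, or a lower power to call peaks on the X chromosome, relates to the low share was not tested. The 48 X-linked sites had a median H3K4me3 width of 1989 bp and a median P17 H3K27me3 width of 1682 bp, and 46 kept H3K4me3. On autosomes the order of the 2 marks was the reverse, with 1458 and 2409 bp.

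H3K4me3 was retained at nearly all gaining sites, so that these regions were called for both marks at P17. An H3K4me3 peak was present at P17 on 9753 of 9915 gaining sites (98.4%, 98.1% to 98.6%). Over all P12 H3K4me3 peaks the share was 95.7%. It was 93.6% (93.3% to 93.9%) for free sites and 99.3% (99.1% to 99.5%) for both-mark sites. The P17 H3K4me3 list was not used by the rule. Retention differed with P12 width, as did the share of sites chosen, and peaks of 1 list are no replicates, so no test was run. Among sites under 1000 bp it was 89.7% (87.7% to 91.3%) for gaining, 82.4% (81.4% to 83.4%) for free and 89.7% (85.9% to 92.5%) for both-mark sites. From 1000 to 1500 bp it was 98.8%, 93.8% and 98.9%, and from 2000 to 3000 bp it was 100%, 99.8% and 100%. At 3000 bp or more every site of the 3 sets kept the mark. In the classes below 2000 bp the intervals of gaining and free sites did not overlap, and those of gaining and both-mark sites did.

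The retained H3K4me3 peaks were a little wider at P17. The P17 peak over a gaining site measured 1783 bp in the median, with a median ratio to its P12 width of 1.17 (quartiles 1.08 and 1.30). The same ratio was 1.26 (1.14 and 1.46) at free sites and 1.14 (1.06 and 1.26) at both-mark sites. Among sites of 2000 to 3000 bp the medians were 1.11 at gaining, 1.24 at free and 1.10 at both-mark sites. Among sites of 3000 to 4000 bp they were 1.08, 1.23 and 1.09. Below 1000 bp the 3 medians lay close together at 1.40, 1.41 and 1.41. The 2 stages differ in pooling, so the ratio itself has no stage meaning alone, while the 3 sets share the same pair of lists. At 341 gaining sites (3.50%) the P17 H3K4me3 peak also covered another P12 H3K4me3 peak, which enters the ratio as widening.

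Loss of H3K4me3 was rare and concerned narrow peaks. The 162 gaining sites without H3K4me3 at P17 (1.63%) measured 898 bp in the median at P12, and those that kept it 1472 bp, and 113 of them (69.8%) were under 1000 bp. The next P17 H3K4me3 peak was a median of 6113 bp away. Of the 162, 22 (13.6%) were joined to an earlier H3K27me3 domain, against 518 (5.31%) of the others. These shares were not matched for width, and joined sites were the narrower (medians 1307 bp joined, 1471 bp separate). None of the 162 carried EED. It lay on 0.414% of all gaining sites and on 1 of 1095 under 1000 bp, so nothing is read from its absence. The widest of the 162, at chr4:105359882-105361645 (1764 bp), lay wholly under a P17 H3K27me3 peak of 2801 bp. The site chr10:59091234-59092685 (1452 bp) lay wholly under a peak of 3076 bp, and chr15:101818444-101819829 (1386 bp) under a peak of 2384 bp. The remaining pair of the 5 widest were only partly covered: chr10:21877916-21879369 over 31.0% and chr2:18506275-18507704 over 70.6% of its length.

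EED was scarce at gaining sites. An EED peak lay on 41 of 9915 gaining sites (0.414%, 0.305% to 0.560%). The share was 2.21% over all P12 H3K4me3 peaks, which include those with H3K27me3 at P12 that the rule leaves out. It lay on 27 of 26706 free sites (0.101%, 0.0695% to 0.147%) and on 884 of 7456 both-mark sites (11.9%, 11.1% to 12.6%). Over whole sets the share at gaining sites thus lay between those at free and both-mark sites. The gaining share was also above the free share in every class of P12 H3K4me3 width, on few sites with EED. Below 1000 bp EED lay on 1 of 1095 gaining and 2 of 5508 free sites. From 1000 to 1500 bp it lay on 6 of 4140 and 3 of 9731, and at 4000 bp or more on 6 of 158 and 1 of 207. With so few sites, overlapping intervals do not show a smaller difference within classes. From 1500 to 2000 bp the shares were 0.560% (0.340% to 0.922%) and 0.237% (0.135% to 0.413%), with overlapping intervals. From 2000 to 3000 bp the shares were 0.397% (0.182% to 0.864%) and 0.155% (0.0786% to 0.306%), again with overlapping intervals. From 3000 to 4000 bp they were 2.09% (1.02% to 4.25%) and 0.0977% (0.0172% to 0.551%), the single class in which the intervals of gaining and free sites did not overlap. The EED list was not used by the rule. It is short, with 2701 peaks from 1 replicate, of which 50 lay on gaining sites. At this length of list an EED level below the calling threshold was not detectable. When the whole P17 H3K27me3 peak over the site was searched, 80 gaining sites (0.807%) and 1154 both-mark sites (15.5%) had EED. Over all P17 H3K27me3 peaks the share with EED was 2.27%.

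The gap to both-mark sites differed with the width of the H3K27me3 peak. Under P17 H3K27me3 peaks of 2000 to 3000 bp, EED lay on 9 of 3699 gaining sites (0.243%, 0.128% to 0.462%) and 2 of 682 both-mark sites (0.293%, 0.0805% to 1.06%). Under peaks of 3000 to 4000 bp the shares were 0.580% and 1.14%, with overlapping intervals. From 4000 to 6000 bp they were 1.42% (0.833% to 2.42%) and 4.30% (3.55% to 5.19%), and from 6000 to 10000 bp 1.57% (0.673% to 3.63%) and 11.3% (9.87% to 12.9%). At 10000 bp or more, EED lay on 1 of 68 gaining sites and on 581 of 1324 both-mark sites (43.9%). Of all gaining sites, 32.2% lay under H3K27me3 peaks below 2000 bp, against 1.84% of both-mark sites. The sets lay closer together when EED was counted anywhere in the P17 H3K27me3 peak. The shares were then 2.74% and 4.93% from 4000 to 6000 bp (1.86% to 4.01% and 4.13% to 5.88%). They were 5.03% and 13.2% from 6000 to 10000 bp, and 20.6% (14 of 68) and 60.7% (804 of 1324) at 10000 bp or more. In the widest class 64 of the 68 gaining sites were joined to a P12 domain. The P17 H3K27me3 peaks over joined sites held 91 EED peaks, of which 80 lay on P12 H3K27me3 and 4 on the gaining sites.

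**Figure D4:**
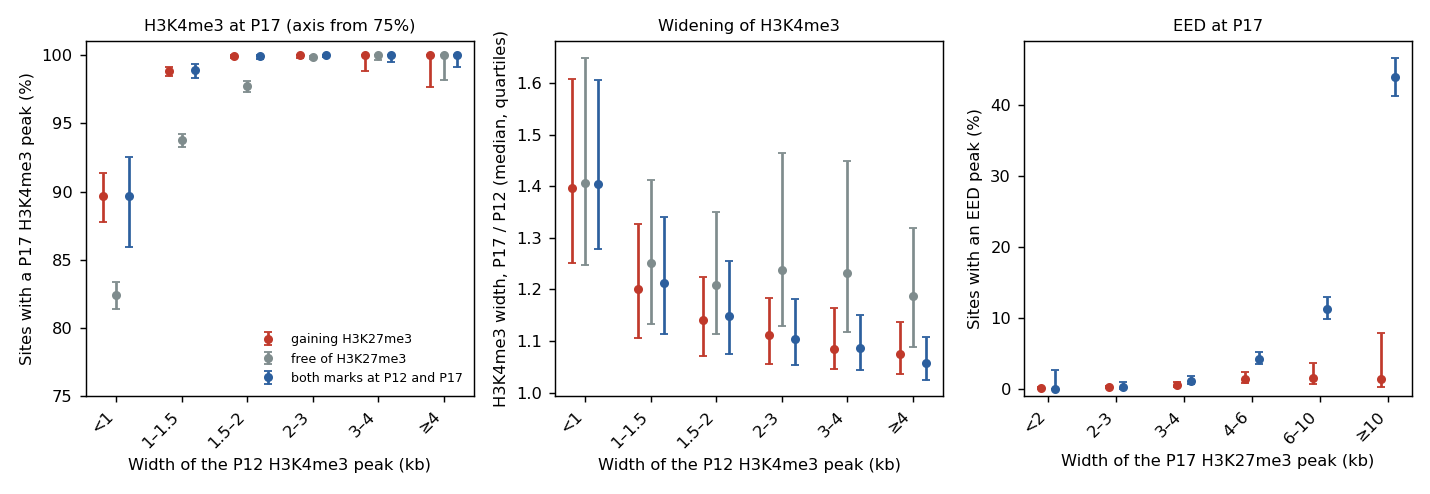
Share of sites with H3K4me3 at P17 (left, vertical axis from 75%, 95% Wilson intervals) and ratio of P17 to P12 H3K4me3 width (middle, medians with quartiles) by P12 H3K4me3 width, and share of sites with EED (right, 95% Wilson intervals) by P17 H3K27me3 width; classes in kb. Gaining and both-mark sites lie close together in the first 2 panels, apart from free sites in retention below 2000 bp and in median widening above 1000 bp. In the third panel they part above 4000 bp, with 1.42% against 4.30% in the first such class.

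The 41 gaining sites with EED were wider than the rest and lay on 16 chromosomes. Their P12 H3K4me3 peaks measured 1936 bp in the median, and those of sites without EED 1458 bp. The P17 H3K27me3 peaks over them measured 3785 and 2402 bp. A wider site has more bases at which to meet an EED peak, and the part of this in the difference was not tested. All 41 kept H3K4me3, and 3 were joined to an earlier domain. Over all gaining sites 98.4% kept H3K4me3 and 5.45% were joined, so neither count sets the 41 apart. Of the 41, 33 carried 1 EED peak, 7 carried 2 and 1 carried 3. The EED peaks on them measured 218.5 bp in the median, and those of the whole EED list 303 bp. The site with 3 lay at chr17:23685416-23688606 (3191 bp), wholly under a P17 H3K27me3 peak of 6509 bp that held 4 EED peaks. Its nearest P12 H3K27me3 peak was 7361 bp away. The next widest with 2 EED peaks each were chr16:76291387-76295590 (4204 bp), chr19:37246936-37250861 (3926 bp), chr8:49639103-49641854 (2752 bp) and chr7:46790679-46793215 (2537 bp). These stood 76719, 56308, 287030 and 1358921 bp from P12 H3K27me3. All 5 kept H3K4me3 at P17, with width ratios from 1.04 to 1.26.

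The widest gaining sites showed H3K27me3 over part of a broad H3K4me3 domain. The widest, chr11:68930603-68940390 (9788 bp), was covered over 95.6% of its length by 2 H3K27me3 peaks and had an H3K4me3 peak of 10169 bp at P17. At chr19:12079389-12088204 (8816 bp) an H3K27me3 peak of 8555 bp covered 88.3%, and H3K4me3 measured 8978 bp at P17. At chr5:32434565-32441752 (7188 bp) a peak of 8424 bp covered 93.5%. At chr13:21258537-21265622 (7086 bp) the H3K27me3 peak measured 1927 bp and covered 27.2% of the site. At chr9:56919015-56925914 (6900 bp) it measured 4642 bp and covered 56.6%. None of these 5 sites carried EED, which lay on 6 of the 158 gaining sites of 4000 bp or more, so nothing is read from this. Each of the 5 stood at least 29507 bp from P12 H3K27me3. Their H3K4me3 peaks differed little between the stages, with width ratios from 1.02 to 1.12.

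**Figure D5:**
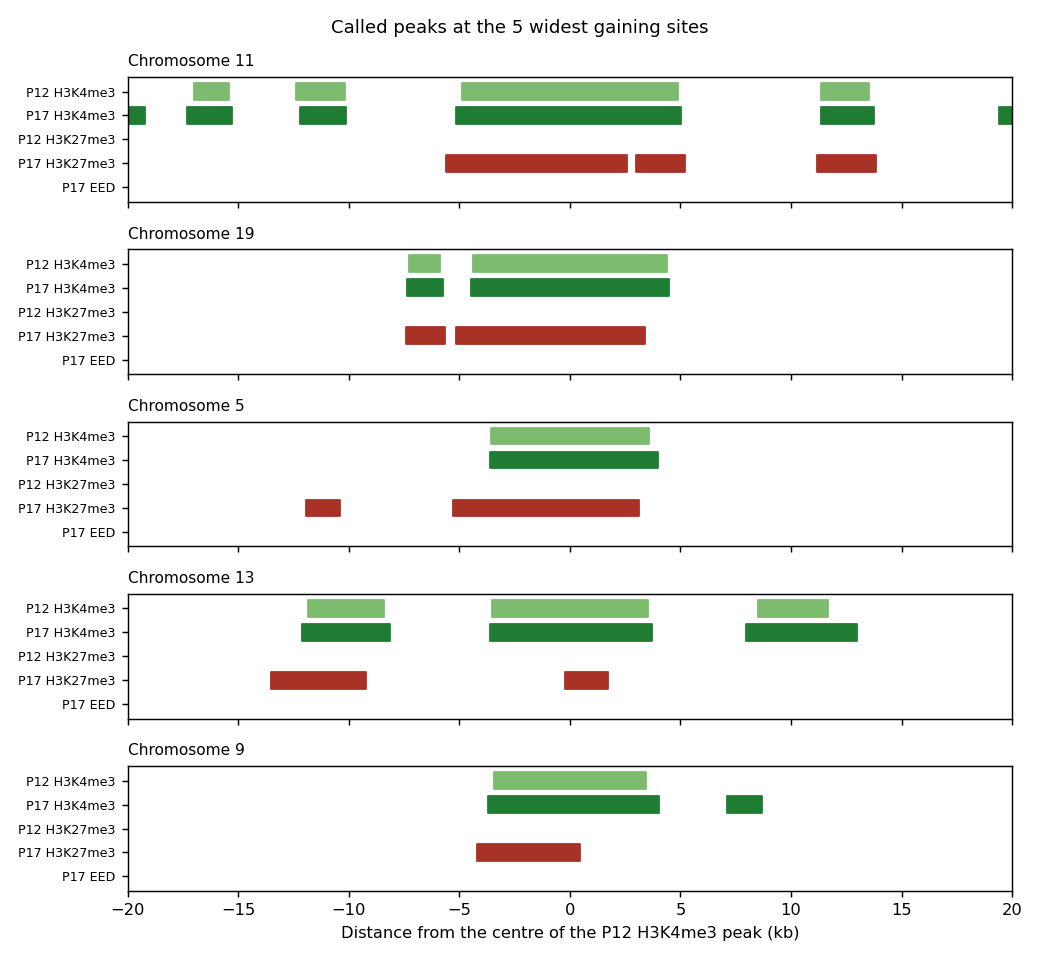
Called peaks of the 5 lists (rows) at the 5 widest gaining sites (panels, by chromosome) against distance from the centre of the P12 H3K4me3 peak (horizontal axis, kb). P12 H3K27me3 and EED rows are empty in each window, and P17 H3K27me3 covers from 27.2% to 95.6% of the central H3K4me3 peak.

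Sites at the edge of the rule were few. Of the gaining sites 37 shared 1 to 100 bp with P17 H3K27me3, with a median H3K4me3 width of 1163 bp, and 36 kept H3K4me3. Just outside, 57 free sites lay 100 bp or less from P17 H3K27me3, with a median width of 1152 bp, and 55 kept H3K4me3. At the other edge 35 gaining sites lay 100 bp or less from a P12 H3K27me3 peak, and 32 peaks were left out for sharing 1 to 100 bp with one.

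Most gaining sites lay under P17 H3K27me3 peaks that a list of the P12 length, filled from the widest peaks, would not hold. The 2266 widest P17 peaks sum to the length of the P12 list and measure at least 6015 bp, and 386 sites met the rule with them. This setting changes list length and peak width together. Of those, 69.2% were joined to an earlier domain, 96.6% kept H3K4me3 and 1.55% carried EED.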

How the data were processed

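The 5 deposited peak lists give the start, end and name of each peak. The names point to MACS as the authors' peak caller, and the file names to a false discovery rate level of 5, with no unit given. They carry no score or height. Build mm9 and the tools Bowtie, SAMtools and HTSeq stand in the submitters' processing notes; caller version and settings: not given in the sources used here. P17 histone-mark lists pool 2 replicates, per the labels. Groups follow the sample titles. Input libraries and the gene-body read counts, which have no coordinates, were not used here.

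Overlap means at least 1 bp. Where several peaks covered a site, the one sharing most bases gave the width. Coordinates count from 1. Shares have Wilson 95% intervals (SciPy 1.17.1); no p-value was computed, since each mark and stage has 1 list. Overlaps were checked against BEDTools 2.31.1 and tested on simulated data. The sites, comparisons and naming rule were chosen with earlier results of these data known. The rule named the 5 widest sites, the 5 with most EED peaks, the 5 widest without P17 H3K4me3 and the 5 H3K27me3 peaks with most sites; chromosome 18 was not named. Figures used matplotlib 3.10.9. In all, 6 alternatives were tried.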

Additional observations from a re-analysis of the deposited data

How the results depend on the processing

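The 6 alternatives gave 48 values for 8 results: 29 stayed within 1.5 times the reported count or inside its 95% interval, and 19 moved. The cause of the moves was not tested beyond the construction of each alternative. With only the widest P17 H3K27me3 peaks, 386 sites remained in place of 9915; 96.6% kept H3K4me3, their median width was 1516 bp, the H3K27me3 peak measured 7430 bp, 1.55% had EED, 69.2% were joined to a P12 domain and the H3K4me3 width ratio was 1.19. With H3K4me3 peaks within 1000 bp merged, the median width was 1501 bp, H3K27me3 measured 2365 bp, 3.90% were joined and the ratio was 1.16. With sites of at least 1000 bp, 99.4% kept H3K4me3, the widths were 1534 and 2450 bp, 4.95% were joined and the ratio was 1.16. With sites at least 1000 bp from P12 H3K27me3, H3K27me3 measured 2371 bp and 2.62% were joined, against 5.45%. With 50% coverage required, 4.93% were joined. Restriction to autosomes moved none of the 8 results. No paired analysis was possible because each mark and stage has 1 list and no result comes from a test. Lists without scores allowed no stricter threshold, and peak calls at P12 are limited by a single library.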

Other observations

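Peak numbers in the P12 H3K27me3 list run along the genome, and 1957 of 14985 (13.1%) were missing from it, against 0 in the P17 H3K27me3 list. A missing number lay between the P12 H3K27me3 peaks flanking 2536 gaining sites (25.6%) and 5836 free sites (21.9%). Counting no more than 1 gaining site for each missing number between the same flanking peaks gave 1019 gaining sites (10.3%), and the same count over free sites gave 1030 (3.86%). Both capped counts are bounded by the same 1957 missing numbers. Their percentages differ because free sites outnumber gaining sites, so nothing is read from that difference. Whether any of these sites had a removed peak was not tested. EED peaks lay within 10 kb of 186 gaining sites (1.88%), 239 free sites (0.895%) and 1223 both-mark sites (16.4%), and within 100 kb of 12.04%, 8.72% and 26.4% of the 3 sets.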
